A study of Homo sapiens with 6 samples.

Results

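The estrogen receptor ESR1 and 9 genes known to work with it or to respond to estrogen were followed in RL95-2, an established cell line from a human endometrial carcinoma. The 10 genes were ESR1, PGR, TFF1, GREB1, SPDEF, EEF1A2, SPTSSB, XBP1, FOXA1 and GATA3, found by their symbols among the 23228 genes of the count tables. They were chosen with their values in these libraries already known, so their levels and fold changes are a description here. No p-value is printed for any of them, and a statement that one did or did not pass a limit is likewise a description. The study asked how medium from fat cells changes the transcriptome of endometrial cancer cells. All cultures were kept for 24 h without serum, 3 control cultures in equal parts of RPMI and DMEM, and 3 ADP-CM cultures in equal parts of RPMI and adipocyte-conditioned medium, which makes 50% (v/v) ADP-CM. ADP-CM was DMEM in which mature adipocytes from the visceral fat of female patients with a high body mass index had been kept. Neither the number of donors behind ADP-CM nor any estrogen measured in it is given in the sources used here. RL95-2 is a single line, and nothing says whether the 3 libraries of a group came from separate experiments, so their spread may be technical and the p-values of other genes measure that spread alone.

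The estrogen receptor is a transcription factor that is switched on by estradiol. It binds a palindromic DNA sequence, the estrogen response element, at sites that FOXA1 and GATA3 help to open in epithelial cells. In the endometrium it drives growth of the epithelium and induces the progesterone receptor PGR, through which progesterone opposes that growth. TFF1, GREB1 and PGR are textbook targets, and TFF1 has been a standard reporter of receptor activity.

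Because TFF1 is the member whose reads varied most, the DNA before its start is shown. TFF1 lies on chromosome 21, 43782391 to 43786644 on the minus strand (GENCODE release 44 on GRCh37, the same chromosomes as the authors' hg19). The stretch shown is chr21:43786947-43787139, read on the minus strand, which begins 495 bases before the start of TFF1 and lies in no annotated gene at the element. Capitals mark the 2 arms of an element that is 1 letter off the palindrome GGTCA, 3 bases of any kind, TGACC.
TFF1: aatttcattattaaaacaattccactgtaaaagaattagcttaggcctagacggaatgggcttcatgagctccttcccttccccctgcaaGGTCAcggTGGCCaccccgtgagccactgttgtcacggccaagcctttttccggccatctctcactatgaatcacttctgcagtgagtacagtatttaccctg
The element, GGTCAcggTGGCC, starts 405 bases before the gene. TFF1 was the only member of 10 with such a match within 1000 bases before the start of its canonical transcript, where 2.31% of 19894 protein-coding starts have one and 0.0855% have an exact match. In the 250 bases before the starts listed by RefSeq (GRCh38.p14), 7 members had an entry. None of their windows held that palindrome, its single arm AGGTCA, the forkhead motif TGTTTAC or the GATA motif AGATAA on either strand. These letters were in 0.0399%, 12.1%, 2.98% and 9.17% of 35116 such windows. A match, or the lack of one, is a description of letters and says nothing of binding.

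Gene counts summed to 16262614 to 18363033 reads per library. Of 15 markers of endometrial epithelium, 10 had at least 10 reads in every library, among them KRT8, KRT18, EPCAM, CDH1 and PAX8, while SOX17 was at 0 and PAX2, MUC16 and WFDC2 had at most 3 reads. Of 20 adipocyte markers 8 were at 0 in all libraries, ADIPOQ and LEP among them, and the list summed to 63.2 to 69.6 CPM in control and 40.8 to 45.8 CPM in ADP-CM, mainly from C10orf116. Stromal markers summed to 68.7 to 75.3 and 93.7 to 96.8 CPM, leukocyte markers to 7.19 to 8.71 and 10.1 to 12.4 CPM, and endothelial markers to 62.7 to 68.7 and 55.9 to 62.7 CPM, mainly from COL1A1, CD68 and CDH5. THY1, MS4A1, AIF1, KDR and EMCN were at 0. The part of these lists in the results was not tested. Replicate 3 was the highest library in both groups for most of the members, so their fold changes are given with and without it. Whether its additional reads of these genes came from RL95-2 cells was not tested. In CPM, control replicate 1 was the lowest control library for ESR1, TFF1, GREB1, SPDEF, EEF1A2, SPTSSB and XBP1. The fits without replicate 3 still hold that library.

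Per kilobase of exon, the members covered a wide range of levels. GATA3 and XBP1 were the highest in control, with 46.2 ± 1.98 and 44.1 ± 2.05 CPM per kb (SD, n = 3), and their ranges over libraries overlapped. FOXA1 followed at 1.70 ± 0.0436 CPM per kb. SPTSSB, EEF1A2, SPDEF, GREB1 and ESR1 lay between 0.622 and 0.110 CPM per kb, each overlapping the next, and PGR was last at 0.00265 CPM per kb. TFF1 had no stable place in this order, since its level ran from 1.13 to 26.7 CPM per kb among the 3 control libraries and from 3.77 to 55.5 among the 3 ADP-CM libraries. In ADP-CM the order by mean was the same apart from XBP1, which was above GATA3 with overlapping ranges. The lengths are those of all annotated exons merged, so a gene with long rare exons, such as ESR1 with 13726 exonic bases, is placed too low. In bulk RNA, fewer cells that express a gene and less RNA per cell cannot be told apart.

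ESR1 (chromosome 6, 151977826 to 152450754), the receptor, was read 20, 27 and 29 times in control replicates 1, 2 and 3 and 22, 32 and 51 times in ADP-CM replicates 1, 2 and 3. ADP-CM replicates 2 and 3 lay above the control range and replicate 1 below it in CPM. Control averaged 1.51 ± 0.244 CPM and ADP-CM 1.91 ± 0.792 CPM (SD, n = 3 per group), which is 0.34 higher on the log2 scale (SE 0.25). Without ADP-CM replicate 3 the log2 fold change was -0.030, and without replicate 3 of both groups 0.062 (SE 0.31). The groups overlapped in CPM, and the log2 fold change of ESR1 depended on whether ADP-CM replicate 3 was included. Whether depth or the spread between libraries limits this fold change was not tested. ESR1 is the target of estradiol in this pathway, and its transcript was among the rarest of the 10.

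PGR (chromosome 11, 100900355 to 101000544), the progesterone receptor, had 0, 0 and 2 reads in control and 2, 0 and 12 in ADP-CM. It was the member that did not pass the filter on low counts, and 12 of its 16 reads came from ADP-CM replicate 3. The summed reads, 2 against 14, give a ratio of 6.42 with an exact 95% counting interval of 1.48 to 58.2 that ignores the spread between libraries. Without replicate 3 the sums were 0 and 2 reads, at or under the limit of 3 reads, and no fold is given. Up to 5.02% of the exonic bases of PGR lie opposite an antisense gene, so its reads also depend on how strand was counted.

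TFF1, the trefoil peptide that mucus-secreting epithelium releases, had the widest spread. It was read 9, 86 and 225 times in control and 52, 34 and 502 times in ADP-CM. The libraries of one group differed by 23.7-fold in control and 14.7-fold in ADP-CM in normalized level, far beyond the exact counting intervals, which were 4.12 to 17.1 reads for control replicate 1 and 197 to 256 for control replicate 3. Replicate 3 was the highest library of each group, 4.66-fold above the mean of replicates 1 and 2 in control and 11.5-fold in ADP-CM. Of all TFF1 reads in the series 80.1% lay in the 2 libraries numbered 3. The group means were 6.27 ± 6.38 and 10.7 ± 14.4 CPM (SD, n = 3 per group). The log2 fold change of 0.75 turned to -1.43 without ADP-CM replicate 3, to 1.90 without control replicate 3, and to -0.28 without both. The fit without both still held control libraries as unlike as 0.555 CPM in replicate 1 and 5.09 CPM in replicate 2. The direction for TFF1 was therefore set by single libraries.

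GREB1 (chromosome 2, 11622467 to 11782914), an estrogen-induced cofactor of the receptor, was read 12, 19 and 51 times in control and 22, 38 and 67 times in ADP-CM. Again replicate 3 was the highest of each group, 3.20-fold above the mean of the others in control and 2.22-fold in ADP-CM. The groups overlapped, and the log2 fold change was 0.50 (SE 0.28). It ran from 0.013 without ADP-CM replicate 3 to 1.30 without control replicate 3, and was 0.81 (SE 0.33) without both.
SPDEF (chromosome 6, 34505579 to 34524110), an ETS factor of secretory epithelium, had 0, 13 and 23 reads in control and 11, 14 and 41 in ADP-CM. Control replicate 1 had no read of it, where the limit of 3 reads taken here is 0.184 CPM and the exact 95% counting interval reaches 3.69 reads. Its log2 fold change of 0.74 became -0.062 without ADP-CM replicate 3 and 1.60 without control replicate 3. Without both it was 0.79 (SE 0.52), on 13 reads in control and 25 in ADP-CM.

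EEF1A2 (chromosome 20, 62119366 to 62130592), the tissue-restricted form of the translation elongation factor eEF1A, was read 19, 34 and 56 times in control and 41, 30 and 122 times in ADP-CM. ADP-CM replicate 3 alone lay above all control libraries. The means were 2.15 ± 1.06 and 3.51 ± 2.72 CPM (SD, n = 3 per group). The log2 fold change was 0.70 (SE 0.27), and -0.15 without ADP-CM replicate 3 (0.28 without both libraries numbered 3). The ubiquitous form EEF1A1, which has many processed copies in the genome so that its unique reads are an underestimate, averaged 1044 ± 10.8 CPM in control against 1020 ± 8.76 CPM with ADP-CM (SD, n = 3 per group). It did not pass the limit (adjusted p = 0.130, edgeR quasi-likelihood test).
SPTSSB (chromosome 3, 161062586 to 161090668), a small subunit of the serine palmitoyltransferase that begins sphingolipid synthesis, was read 18, 31 and 69 times in control and 23, 32 and 114 times in ADP-CM. Its log2 fold change was 0.39 (SE 0.29). It became -0.64 without ADP-CM replicate 3 and 0.029 without both libraries numbered 3. The paralogous subunit SPTSSA did fall, from 86.7 ± 2.50 to 71.1 ± 1.69 CPM (SD, n = 3 per group) (log2 fold change -0.29, adjusted p = 2.53e-09, edgeR quasi-likelihood test).

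XBP1 (chromosome 22, 29190543 to 29196585), an estrogen-responsive factor of the unfolded protein response, was read 2103, 2199 and 2405 times in control and 2455, 2551 and 3068 times in ADP-CM. In CPM, replicate 3 was the highest library of each group, and the lowest ADP-CM library, with 135.6 CPM, lay below the highest control library, with 140.6. The means were 133.5 ± 6.19 and 147.2 ± 17.1 CPM (SD, n = 3 per group) (log2 fold change 0.14, SE 0.040). XBP1 was the only member past the adjusted p-value of 0.01 in the edgeR fit of all genes. DESeq2 and a robust edgeR fit gave standard errors of 0.10 for XBP1, and it did not pass there, nor without control replicate 1 or 2, without ADP-CM replicate 3 (log2 fold change 0.040), or without both libraries numbered 3 (0.080). Gene-level counts do not separate the spliced from the unspliced form of XBP1.
FOXA1 (chromosome 14, 38058757 to 38065264), the forkhead factor that opens chromatin for the receptor, was read 121, 124 and 132 times in control and 111, 106 and 150 times in ADP-CM. The ADP-CM libraries lay on both sides of the control range. The log2 fold change was -0.17 (SE 0.12), and -0.31 (SE 0.15) without both libraries numbered 3.
GATA3 (chromosome 10, 8087341 to 8117161), a zinc finger factor of luminal epithelium, was read 2669, 2610 and 2594 times in control and 2704, 2796 and 2743 times in ADP-CM. It was the only member that was not highest in ADP-CM replicate 3. Its means were 156.9 ± 6.73 and 150.3 ± 1.86 CPM (SD, n = 3 per group) (log2 fold change -0.061, SE 0.030), and the log2 fold change was -0.079 (SE 0.033) without both libraries numbered 3.

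**Figure D1:**
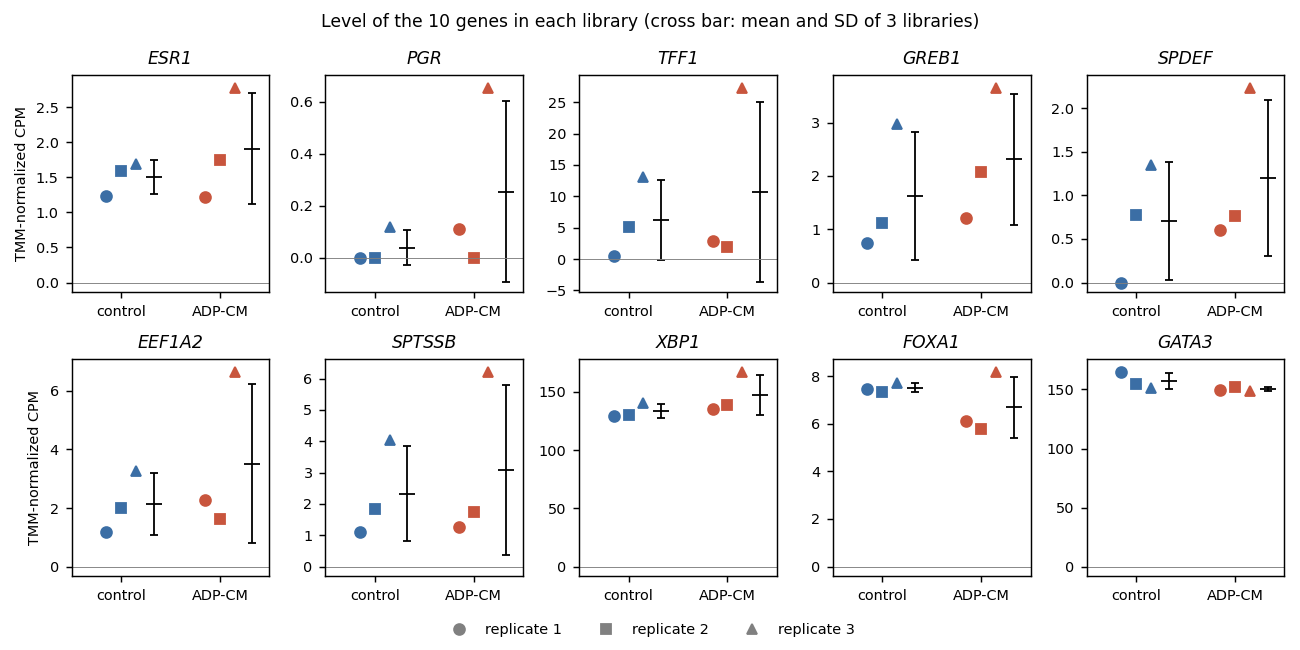
TMM-normalized CPM (read counts scaled to library size) of each of the 10 genes in the 3 control (blue) and 3 ADP-CM (red) libraries, with a marker for each replicate number and a cross bar for the mean and SD of 3 libraries. ADP-CM replicate 3 (triangle) is the highest of the 6 libraries for 9 genes, with TFF1 at 27.3 CPM against 0.555 to 13.2 in control, and GATA3 is the exception.

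In the comparison of ADP-CM with control, 9 of the 10 members passed the filter on low counts, 7 of them with a log2 fold change above 0 and 2 below. With edgeR's quasi-likelihood test, 1 member was past an adjusted p-value of 0.01, where 26.5% of 12663 tested genes were, and 0 members also passed a fold change of 1.5, where 2.27% did, 1.14% in each direction. Raised genes made up 13.5% of those tested and lowered genes 13%. DESeq2 called 0 members at that p-value, where it called 16.9% of the same genes. At an unadjusted p under 0.05 in edgeR, 2 members were higher and 1 lower. The groups did not overlap for 0 of the 10 members, against 45.5% of the tested genes. The members were chosen on these values, so nothing is read from these counts. The median log2 fold change over the 9 tested members was 0.39 and that over all tested genes -0.0023. Without replicate 3 of both groups these medians were 0.062 and -0.0020. The count of members raised was 0 without replicate 1 or 2 of control and without ADP-CM replicate 3, 3 without ADP-CM replicate 1 or 2, and 4 without control replicate 3. The count lowered was 1 without ADP-CM replicate 3, with TFF1 as that member.
The standard errors of the main fit borrow spread from other genes and are small for genes that differ this much among replicates. For TFF1 the standard error was 0.39 in that fit, 1.45 in DESeq2 and 1.44 in the robust edgeR fit, and for SPTSSB 0.29, 0.86 and 0.88.

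**Figure D2:**
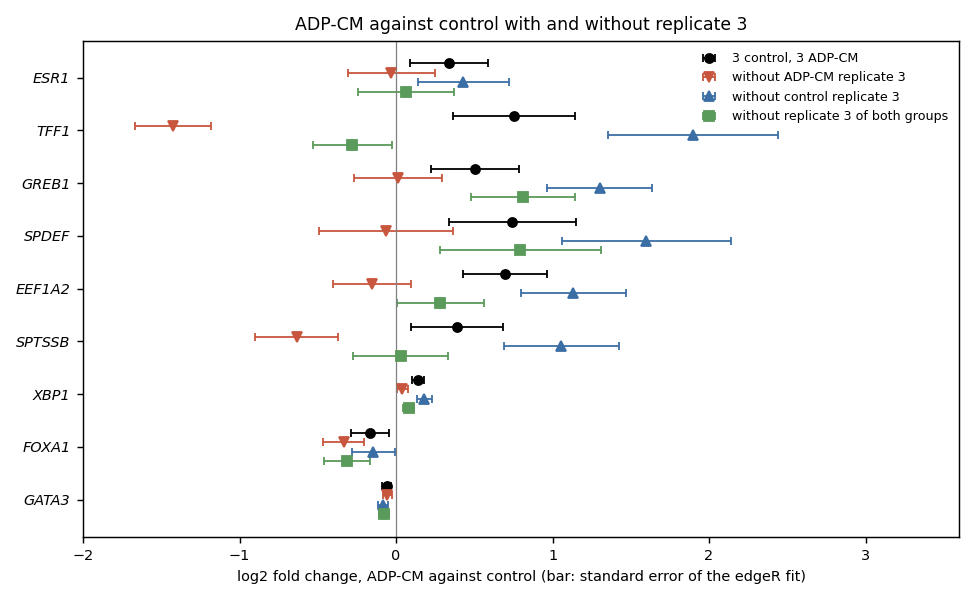
Log2 fold change of ADP-CM against control for the 9 tested members, with the standard error of the edgeR fit, in all 6 libraries and with replicate 3 of 1 or both groups left out. TFF1 lies at 0.75 with all libraries, at -1.43 without ADP-CM replicate 3 and at 1.90 without control replicate 3, while GATA3 stays between -0.085 and -0.056.

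Which libraries were high was shared by most members. Replicate 3 was the highest library in both groups for 9 of the 10, where this holds for 11.2% of 12888 genes with at least 10 reads in replicate 3 of either group. It was also at least 2-fold above the mean of replicates 1 and 2 in both groups for 6 members, PGR, TFF1, GREB1, SPDEF, EEF1A2 and SPTSSB, against 0.272% of those genes. PGR met this rule in control only with 2 reads against 0 and 0, under the limit of 3 reads, and has no ratio there. These values are part of why the members were chosen, so the counts describe them. Replicate 3 was at most 0.5 times the mean of the others in both groups for 0 of those genes. Only genes with at least 10 reads in replicate 3 of either group were considered, so genes rare there were left out. This count can therefore not be set against those of genes high in replicate 3.
The excess of replicate 3 over the mean of its group's other libraries differed between groups by gene. For TFF1 it was 10.3 CPM in control and 24.9 in ADP-CM, and for XBP1 10.7 and 29.4 CPM. For EEF1A2 it was 1.68 and 4.68 CPM and for SPTSSB 2.56 and 4.69 CPM. For GREB1 the excess was about equal, 2.05 and 2.00 CPM. With the exact counting intervals scaled to CPM, that of ADP-CM replicate 3 lay above those of both other libraries for 5 members (TFF1, SPDEF, EEF1A2, SPTSSB and XBP1), and in control for 3 (TFF1, GREB1 and SPTSSB). Depth was alike, since control replicate 3 had 17096135 reads on genes and ADP-CM replicate 3 had 18363033, and reads on no gene made up 10.3% and 11.5% of their reads against 10.2 to 10.3% and 11.6% in the other libraries of their groups. Replicate 3 had the most genes with reads in both groups. These were 15205 against 14965 and 15031 in control, and 15307 against 15101 and 15153 in ADP-CM.

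**Figure D3:**
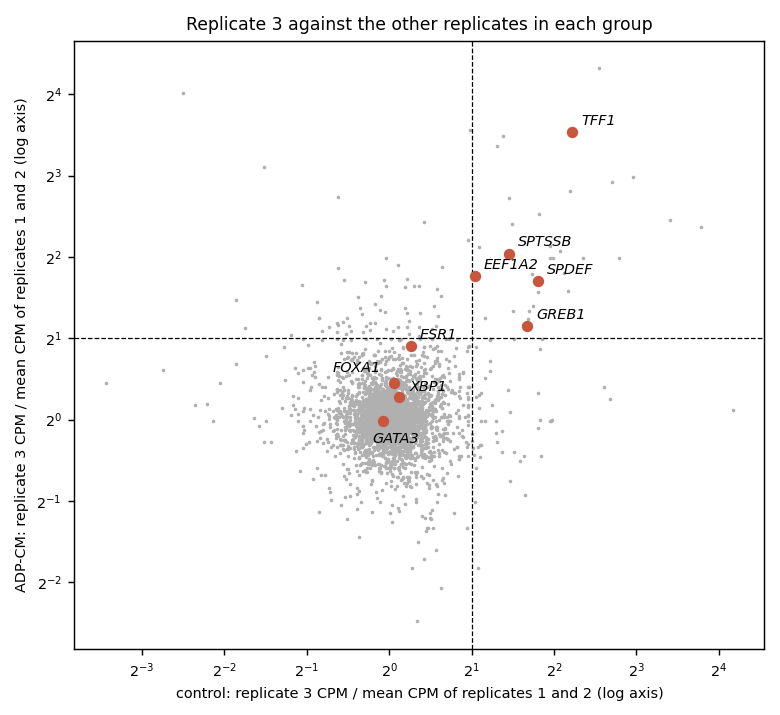
Ratio of replicate 3 to the mean of replicates 1 and 2 in control (x axis) and in ADP-CM (y axis), both log axes, for 12881 genes with a ratio above 0 in both groups (grey) and the members (red). Dashed lines mark a ratio of 2, and TFF1, SPTSSB, SPDEF, EEF1A2 and GREB1 lie in the sparse upper right corner, while PGR, with 0 reads in control replicates 1 and 2, has no ratio.

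Another 29 genes had replicate 3 highest and at least 2-fold above the mean of the others in both groups, and they were picked here after their values were seen. All were rare, with 10 to 58 reads in ADP-CM replicate 3. DYNLT3 and MUC5B had 0 reads in control replicates 1 and 2 and so, like PGR, no ratio in control. DSCAM-AS1, a long non-coding RNA known from estrogen receptor-positive breast tumours, had 2, 2 and 16 reads in control and 8, 5 and 52 in ADP-CM. IGFBP4, an estrogen-induced binding protein of insulin-like growth factors, had 4, 7 and 39 reads in control and 6, 19 and 50 in ADP-CM. PKIB, an inhibitor of protein kinase A, had 3, 9 and 28 and then 9, 4 and 46 reads. C6orf97, the neighbour of ESR1 now called CCDC170, had 1, 2 and 10 and then 4, 2 and 23 reads. TFF3, GFRA1, ELOVL2, SCUBE2 and KIAA1324 were also among the 29. Most of the 29 were on none of the lists, among them the one with the most reads, the calcium-binding protein gene S100A14, with 7, 10 and 38 reads in control and 17, 16 and 58 in ADP-CM. ASS1, an enzyme of arginine synthesis, had 8, 7 and 22 and then 12, 18 and 38 reads. ATP2A3, NNT, PLOD2 and TMCO1 were others, and no theme of the 29 was tested. Of 45 estrogen-induced genes in a list that held no members, 40 had enough reads to be considered. Of these 5 (IGFBP4, TFF3, PKIB, ELOVL2 and GFRA1) showed the pattern, against 0.272% of all 12888 genes considered. Among the lists of uterine steroid-responsive genes, receptors and cofactors, steroid metabolism and endoplasmic reticulum folding, 0 genes did, and 0 of the markers of endometrial epithelium, adipocytes, stroma, leukocytes and endothelium did. Among paralogs and partners it was KIAA1324 alone. The lists were written with earlier results known and reads in replicate 3 decided which genes were considered, so nothing is read from these counts. Whether these reads came from RL95-2 cells was not tested, so the levels of TFF1, GREB1, PGR and the other genes of this pattern are those of the libraries.

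The wider estrogen pathway was read from lists of genes that are no members, which were also written with earlier results known. Of 35 tested estrogen-induced genes, 8 were raised and 6 lowered past the adjusted p limit of 0.01 (edgeR quasi-likelihood test), where 13.5% of all tested genes were raised and 13% lowered. Their median log2 fold change was 0.049. KRT19, a keratin of simple epithelium, fell from 267.5 ± 3.88 to 148.6 ± 4.14 CPM (SD, n = 3 per group) or by 0.85 on the log2 scale, though KRT19 has processed copies in the genome. CTSD, a lysosomal protease that estrogen induces in breast cells, fell by 0.34 on the log2 scale and the amino acid transporter SLC7A5 by 0.20. MYC, a growth-promoting transcription factor, rose from 258.2 ± 0.502 to 322.0 ± 6.11 CPM (SD, n = 3 per group) (log2 fold change 0.32). All 4 passed, SLC7A5 with the largest value (adjusted p = 3.05e-15, edgeR quasi-likelihood test). Without replicate 3 of both groups 8 genes were raised and 5 lowered.
Among 17 tested genes that steroids regulate in the uterus, 4 were raised and 2 lowered, where 13.5% and 13% of all tested genes were. Without replicate 3 of both groups these counts were 3 and 2. Complement C3 rose from 19.2 ± 0.712 to 31.5 ± 0.148 CPM (SD, n = 3 per group) (log2 fold change 0.71, adjusted p = 1.85e-15, edgeR quasi-likelihood test). BMP2 and NR2F2, both of the decidual response, fell by 0.45 and 0.11 on the log2 scale, and NR2F2 was not past the limit without control replicate 2 (-0.085), which left 1 gene lowered. The mucin MUC1 had 12, 21 and 15 reads in control and 34, 25 and 68 in ADP-CM. Its log2 fold change of 1.27 became 0.76 without ADP-CM replicate 3 and did not pass there (adjusted p = 0.0417, edgeR quasi-likelihood test).

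Per kilobase of exon, ESR2 had a lower level in control than ESR1, 0.0184 CPM per kb against 0.110. ESR2, the second estrogen receptor, had 2 to 7 reads in any library and did not pass the filter. GPER, the membrane receptor for estrogen, had 3.84 ± 0.219 and 4.30 ± 0.394 CPM (SD, n = 3 per group), and did not pass (adjusted p = 0.422, edgeR quasi-likelihood test). The glucocorticoid receptor NR3C1 rose from 88.8 ± 1.23 to 98.5 ± 2.41 CPM (SD, n = 3 per group) (log2 fold change 0.15). Of 28 tested receptors and cofactors, 9 were raised and 3 lowered, where 13.5% and 13% of all tested genes were. However, 5 of the 28 were raised without control replicate 3 and 5 by DESeq2. Without replicate 3 of both groups 7 were raised and 2 lowered. NRIP1, an estrogen-induced repressor of the receptor, rose by a log2 fold change of 0.23, and the cofactors PHB2 and CARM1 by 0.16 each. ELF3, an ETS factor of epithelium, fell from 367.0 ± 5.59 to 253.7 ± 5.47 CPM (SD, n = 3 per group) (log2 fold change -0.53).

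The genes of estrogen synthesis and breakdown that were called all fell. Of 16 tested, 0 were raised and 5 lowered past the adjusted p limit of 0.01 (edgeR quasi-likelihood test), where 13.5% and 13% of all tested genes were. By DESeq2 the counts were 0 and 4, and at an unadjusted p under 0.05 in edgeR 2 were higher and 7 lower. The aromatase gene CYP19A1, whose enzyme makes estrogen, had 0 reads in all 6 libraries. STS, the sulfatase that frees estrogens from their sulfates, fell from 63.7 ± 3.69 to 47.6 ± 0.766 CPM (SD, n = 3 per group) (log2 fold change -0.42). CYP1A1, which hydroxylates estradiol and is induced through the aryl hydrocarbon receptor, fell from 133.2 ± 2.58 to 102.7 ± 3.54 CPM (SD, n = 3 per group), or by 0.38 on the log2 scale. HSD17B7, which reduces estrone and also serves cholesterol synthesis, fell by 0.61, and AKR1C2, which has near-identical neighbours so that its reads are uncertain, by 0.66.

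Of 24 endoplasmic reticulum genes of the unfolded protein response, the program that XBP1 takes part in, 4 were raised and 5 lowered. Of all tested genes 13.5% were raised and 13% lowered. The median log2 fold change of the 24 was -0.021. Without control replicate 3, 2 were raised, and without control replicate 1 or ADP-CM replicate 1, 3 were lowered, as by DESeq2. HSPA5, the chaperone BiP, rose by a log2 fold change of 0.17 (SE 0.017), while CRELD2, an induced secretory protein, fell by 0.42, PDIA6 by 0.13 and SEC61A1 by 0.11. Of 16 tested paralogs and partners of the members, 4 were raised and 5 lowered, and 4 and 6 without replicate 3 of both groups. The ETS factor EHF, a relative of SPDEF, rose from 5.57 ± 0.604 to 10.8 ± 0.362 CPM (SD, n = 3 per group) (log2 fold change 0.96). GATA2, a relative of GATA3, fell from 49.2 ± 0.949 to 36.4 ± 0.909 CPM (SD, n = 3 per group) (log2 fold change -0.43). EEF1B2, an exchange factor for eEF1A, rose by a log2 fold change of 0.16. Leaving out any 1 library kept each gene drawn in the plot of these lists on its side of 0, and each called one other than NR2F2 and MUC1 past the limit.

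**Figure D4:**
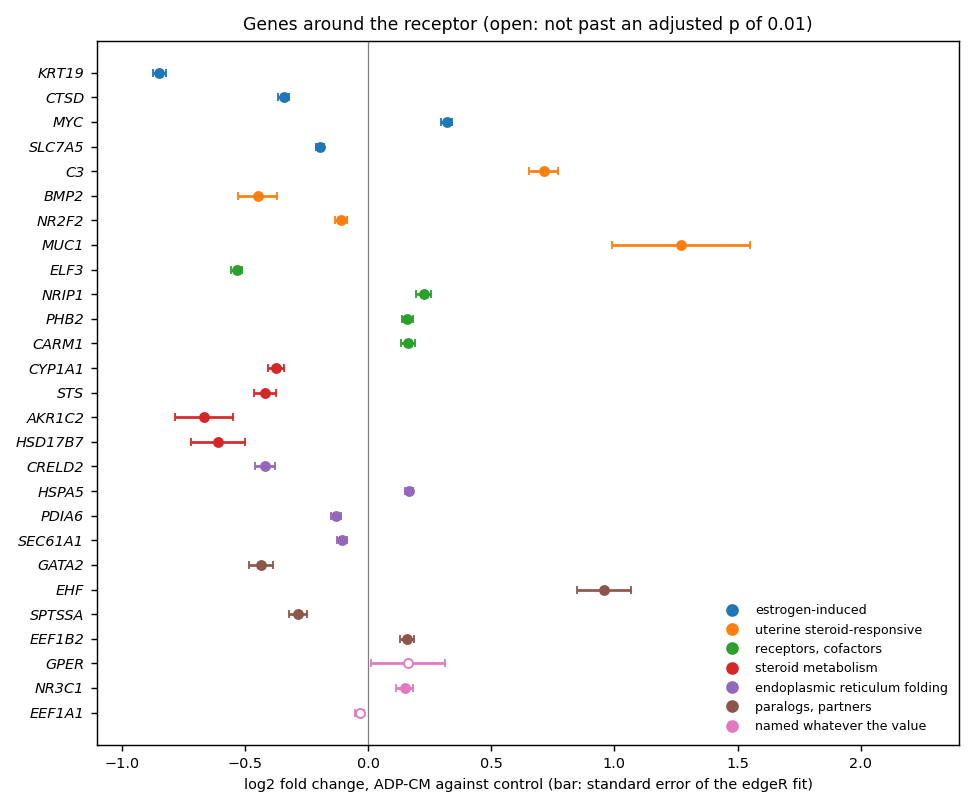
Log2 fold change of ADP-CM against control, with the standard error of the edgeR fit, for the tested genes named besides the members, coloured by list. Filled points passed an adjusted p-value of 0.01, and most lie within 0.5 of 0, with KRT19 (-0.85), EHF (0.96) and MUC1 (1.27) farthest out.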

How the data were processed

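RNA of 3 control and 3 ADP-CM cultures of RL95-2 cells was sequenced from stranded poly(A) libraries. Per the labels and the study's methods, the authors aligned single reads to hg19 with TopHat2 and deposited raw HTSeq counts per RefSeq gene, without normalization. Versions and the strand setting are not given in the sources used here. The summary lines of HTSeq, such as that for reads on no gene, held 31.4 to 33.0% of reads and were left out. Reads without a unique alignment are among them, so genes with close copies are undercounted. All pairs of replicates differed by more than sampling noise, and ADP-CM replicates 2 and 3 did so the most.

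With edgeR 4.0.16 in R 4.3.3, genes were kept by filterByExpr (12663 of 23228), normalized by TMM and tested by quasi-likelihood, with Benjamini-Hochberg adjusted p-values, at a limit of 0.01 with or without a fold change of 1.5. Standard errors are the log2 fold change over the root of F. DESeq2 1.42.0 was the alternative. Both were tested on simulated data (198 and 189 of 200 changed genes recovered among 12597 genes). There all genes had the same small spread and the changed ones were well read. The recovery therefore does not cover members with few reads or a wide spread. CPM values are TMM-normalized. Counting intervals are exact and cover counting error only, as reads carry no molecular identifiers, and 3 reads were taken as the limit of detection.

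The members and lists were chosen with earlier results of these data known. Named besides members were 6 fixed genes, of which 1 is not reported here, and, per list, up to 4 genes with the smallest p-values past the limit at a mean of at least 1 CPM. The main fit did not pair the samples by replicate number. Deviations of equal numbers had correlations of 0.0726, 0.0141 and 0.0973, which cannot settle whether the cultures were paired.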

Additional observations from a re-analysis of the deposited data

How the results depend on the processing

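Among values of single genes under the alternatives, 511 kept their direction and their side of the limit, 9 fell short of it, 12 came past it and 6 turned. Without ADP-CM replicate 3 the log2 fold change turned negative for ESR1 (-0.030), TFF1 (-1.43), SPDEF (-0.062), EEF1A2 (-0.15) and SPTSSB (-0.64), and for TFF1 (-0.28) also without replicate 3 of both groups. With single libraries left out it ran from -0.030 to 0.58 for ESR1, -1.43 to 1.90 for TFF1, -0.062 to 1.60 for SPDEF, -0.15 to 1.13 for EEF1A2 and -0.64 to 1.05 for SPTSSB. The count of members raised, 1 with all libraries, was 0 with DESeq2, with the robust edgeR fit and without replicate 3 of both groups, 2 at an adjusted p-value of 0.05, 3 without a filter on low counts, and 0 to 4 when single libraries were left out, where 0 to 1 were lowered. With the replicate number as a block it was 3, TFF1 and EEF1A2 beside XBP1, and no other count of the lists or of all genes (3502 calls against 3357) moved by over 1.5 times. The deviations of each control library correlated best with those of its own number, but those of ADP-CM replicate 2 did so with control replicate 1.

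DESeq2 raised 1124 and lowered 1015 genes against 1707 and 1650, and 95 against 144 were raised past a fold of 1.5. A fold limit of 1.2 gave 631 raised and 583 lowered, and a limit of 2 gave 33 and 36. DESeq2 raised 5 receptors and cofactors and lowered 3 folding genes. Of the steroid metabolism genes 1 was raised without a filter and 1 at an adjusted p-value of 0.05. Single libraries left out gave 5 to 10 receptors and cofactors raised, 0 to 1 steroid metabolism genes raised, 2 to 4 folding genes raised and 3 to 4 lowered, and 1 to 3 uterine genes lowered. The causes were not tested. PGR, SPDEF and ESR1 had the fewest reads of the members, with 16 to 181 over all libraries. Whether depth or the spread between libraries limits their fold changes was not tested.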
